A study of Mus musculus with 60 samples.

Results

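The genes of DNA replication origins and forks were described in an expression array study of mouse lymphomas. They are 50 genes chosen by their role, from the origin recognition complex through the replicative helicase, the polymerases, the sliding clamp and nucleotide supply to the proteins that protect the fork. Each was represented by the probe set that names it alone and has the highest mean over the 60 arrays. All 50 had such a probe set and passed the filter on low values, out of 18194 genes with a probe set of their own and 12618 that passed. The arrays hold 25 early lymphomas, of Eµ-myc transgenic mice (Em-myc in the labels) with onset at 32 to 76 days of age, and 25 late lymphomas of the same genotype with onset at 253 to 649 days. The 10 normal tissues came from wild-type mice. The young ones are 6 lymph nodes taken at 38 to 73 days, and the 4 old ones, taken at 304 to 438 days, are 3 lymph nodes and a spleen. The series design sets tumours of early onset against those of late onset. In the Eµ-myc model the immunoglobulin heavy chain enhancer drives Myc in B lineage cells, so the transgene is present in both lymphoma groups and in neither kind of normal tissue. No control tissue of transgenic mice without a tumour was part of these groups. Whether any arrays share an animal, litter or batch is not given in the labels, and each p-value therefore reflects only the spread among these arrays, part of which may be technical.

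In each cell cycle the origin recognition complex marks DNA, and Cdc6 and Cdt1 help it load the ring-shaped Mcm2 to Mcm7 helicase, a step called licensing that geminin (Gmnn) blocks outside G1. The Cdc7 and Dbf4 kinase and cyclin-dependent kinases then recruit Cdc45 and the GINS complex, which turn the loaded ring into an active helicase, and primase and DNA polymerases copy the strands behind it. The pathway runs only in dividing cells, E2F factors switch on many of its genes at the start of S phase, and resting lymph node is made up mostly of lymphocytes outside the cycle.

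As a check of the labels, Myc intensity (the MAS5 signal of its probe set, on a linear scale) ran from 8909 to 18542 in early lymphomas, from 4964 to 19707 in late lymphomas and from 880.3 to 1606 in normal tissue, with no overlap between lymphoma and normal tissue. The summed intensity of 8 B lineage markers was 9748 to 55109 in early lymphomas, 2684 to 66137 in late lymphomas and 27351 to 50565 in normal tissue, and no marker was at 0. Late lymphoma 130 stood apart, with the lowest B lineage sum of 2684 and the highest sum of 8 T cell markers among lymphomas (30321). Late lymphomas 117, 130, 131 and 133, which are highest in the T cell coreceptor gene Cd8b1, were the 4 late lymphomas lowest in B lineage markers. Late lymphomas 120, 125, 129, 137 and 138 had summed plasma cell marker intensities of 117275 to 148488, against 9868 to 45315 in the other 20. For replication and mitotic genes, counts of calls between late lymphoma and the other groups are also given without the 5 and without the 4. Below, the intensities listed for a group are its lowest, median and highest array, ± after a log2 change is its standard error, and changes are on the scale of log2(intensity + 15.7), tested with limma and adjusted by Benjamini-Hochberg at a threshold of 0.05 over all kept probe sets.

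Promoter sequence of 41 of the 50 genes was found in RefSeq (GRCm38.p6), 250 bases upstream of each transcript start. The E2F-type letters TTTGGCGC, TTTCGCGC, TTTCCCGC or TTTGCCGC, on either strand, occur in 9 of the 41 genes (22%), against 2.16% of the 27025 genes in the same table. The 9 are Orc1, Orc3, Cdc6, Mcm5, Mcm6, Mcm7, Gins3, Pola1 and Rfc3. The letters CCAAT were in 24 of the 41 (58.5%, against 37.5% of all genes), the E-box letters CACGTG, a sequence that Myc with Max can bind, in 5 (12.2%, against 6.86%) and the CHR letters TTTGAA in 6 (14.6%, against 18.3%). Below are 120-base windows of 6 of the 9 promoters, with the matched letters in capitals. They are examples from origin recognition (Orc1), licensing (Cdc6), the MCM helicase (Mcm5, Mcm6 and Mcm7) and polymerase alpha (Pola1). All 9 genes rose in early lymphoma, and the windows of Orc3, Gins3 and Rfc3 are not shown. The letters are written 5′ to 3′ on the gene's strand, and each match is a description of the sequence, not of a bound site.
Orc1 promoter, chr4:108579334-108579453, plus strand: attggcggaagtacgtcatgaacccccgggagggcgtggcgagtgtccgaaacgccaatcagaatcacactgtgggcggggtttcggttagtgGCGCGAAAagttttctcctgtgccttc
Cdc6 promoter, chr11:98907957-98908076, plus strand: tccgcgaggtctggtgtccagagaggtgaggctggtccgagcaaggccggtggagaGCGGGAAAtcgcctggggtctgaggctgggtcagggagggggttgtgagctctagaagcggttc
Mcm5 promoter, chr8:75109302-75109421, plus strand: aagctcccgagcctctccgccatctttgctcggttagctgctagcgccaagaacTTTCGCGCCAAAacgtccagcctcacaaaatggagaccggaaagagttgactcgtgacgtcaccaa
Mcm6 promoter, chr1:128359721-128359840, minus strand: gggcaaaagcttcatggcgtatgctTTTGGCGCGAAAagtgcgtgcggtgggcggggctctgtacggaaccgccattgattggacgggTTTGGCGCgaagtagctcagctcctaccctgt
Mcm7 promoter, chr5:138171985-138172104, minus strand: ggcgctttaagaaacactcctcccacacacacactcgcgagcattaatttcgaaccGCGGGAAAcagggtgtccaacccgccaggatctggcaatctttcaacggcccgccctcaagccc
Pola1 promoter, chrX:93632230-93632349, minus strand: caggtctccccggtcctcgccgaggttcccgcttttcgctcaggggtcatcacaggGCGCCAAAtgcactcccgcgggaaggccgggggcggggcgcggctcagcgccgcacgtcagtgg
In Mcm5 and Mcm6 overlapping matches, 1 on each strand, form the longer capital run, and Mcm6 holds a further match closer to its start.

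In early lymphoma nearly the whole replication machinery was more abundant than in normal tissue. Of the 50 genes, 49 rose and 0 fell, while 30.1% of all 12618 genes rose and 39% fell. The median change of the 50 was 1.84, against -0.10 over all genes, and the change was over 2 on the log2 scale for 19 of them and under 1 for 11. For 44 genes all 25 early lymphomas lay above all 10 normal tissues, a separation that 12.2% of all genes showed. In bulk tissue such as this, a difference in the number of cells of a type and in RNA per cell cannot be told apart. Ordered by the median change of each step, licensing factors (2.56), helicase activation (2.15), nucleotide supply (2.14) and fork protection (2.04) led, followed by primase and polymerases (1.95), the MCM helicase (1.86), single-strand binding (1.69), the clamp and its loader (1.39), Okazaki fragment joining (1.20) and origin recognition (0.75). Members of a step ranged widely, from 0.32 to 3.07 within helicase activation, so that the order of steps is a description and was not tested. The value for licensing factors rests on 3 genes and is that of Gmnn, which inhibits licensing, between Cdc6 (2.91) and Cdt1 (1.34). That for Okazaki fragment joining rests on 2 genes, Lig1 (2.03) and Fen1 (0.36). A second probe set of Fen1 gave 2.04, so the place of this step depends on the probe set.

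Late lymphoma was compared with the same 10 normal tissues, so these values share their controls with the early comparison. Of the 50 genes, 46 rose and 0 fell, against 24.7% of all genes rising and 30.1% falling, and the median change was 1.31 (-0.05 over all genes). Against the 4 old normal tissues alone 42 rose, with Orc1, Orc3, Pole2 and Rpa1 no longer called (15.5% of all kept probe sets were called higher there). Without the 5 late lymphomas highest in plasma cell markers 47 rose (24.3% of all kept probe sets). Without the 4 highest in Cd8b1 45 did (22.2% of all kept probe sets), Rpa1 being the gene lost. The separation was less complete than in early lymphoma by count: for 8 genes (Orc2, Cdt1, Mcm10, Cdc45, Gins4, Pold2, Rfc4 and Tipin) every late lymphoma lay above every normal tissue, as 3.74% of all genes did. Licensing factors again had the largest median (1.92), followed by nucleotide supply (1.70) and helicase activation (1.61), and origin recognition had the smallest (0.49). The licensing median was again that of Gmnn, between Cdc6 (2.50) and Cdt1 (1.16). Between the lymphoma groups, 36 genes were lower in late lymphoma and 0 higher, against 12.6% of all genes lower and 11.2% higher. The median change from early to late was -0.43 (0.02 over all genes), and the change was below 0 for all 50. With RNA 3-prime to 5-prime ratios as covariates 13 were lower (median -0.30), when 3.61% of all kept probe sets were. Without the 5 late lymphomas highest in plasma cell markers 22 were (median -0.26), when 5.06% of all kept probe sets were. Without the 4 highest in Cd8b1 35 were, when 10.5% of all kept probe sets were. The falls given per gene below are those over all 50 lymphomas. The per-gene changes by step and the map of every array show these shifts.

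**Figure D1:**
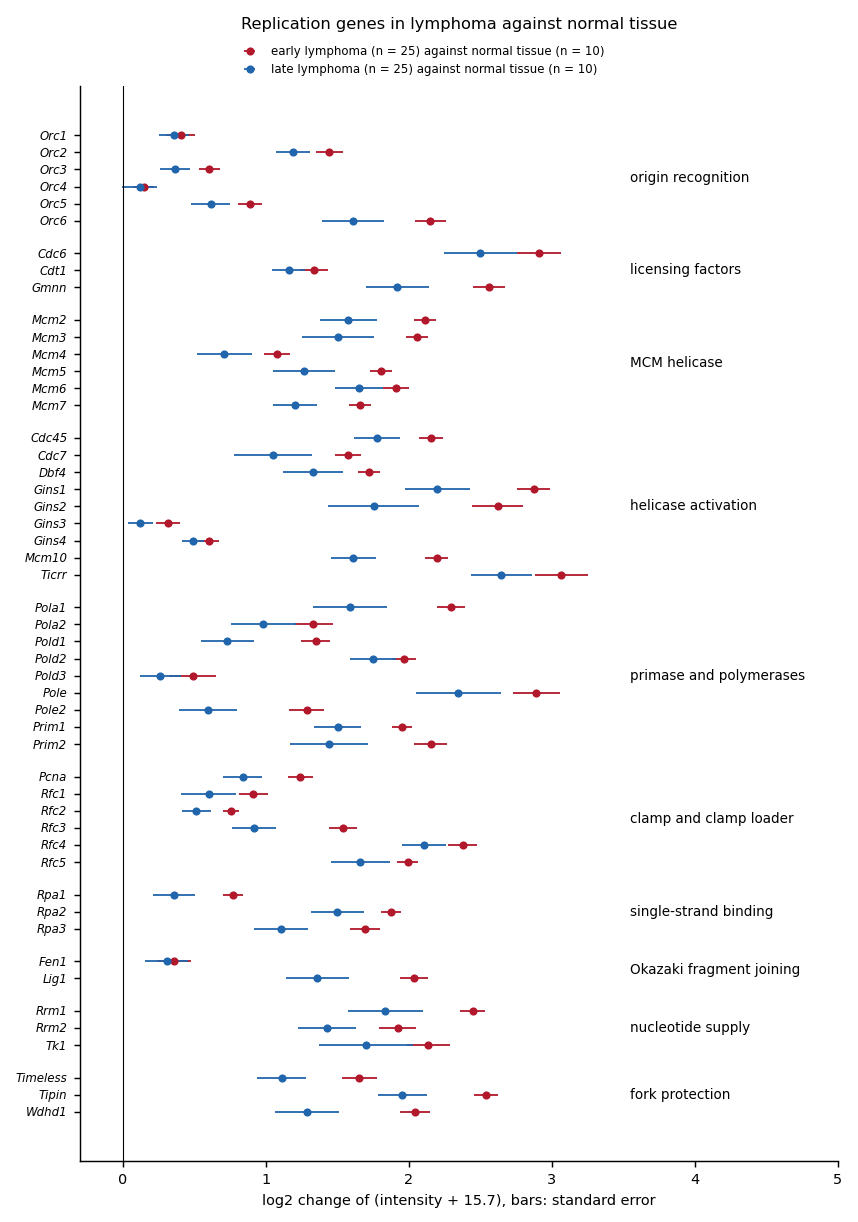
Log2 change of each of the 50 replication genes (vertical axis, grouped by step) in early lymphoma (red, n = 25) and late lymphoma (blue, n = 25) against the same 10 normal tissues, with standard errors as bars. Every late value lies to the left of its early value, Orc4 has the smallest early change at 0.15 and Ticrr the largest at 3.07.

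**Figure D2:**
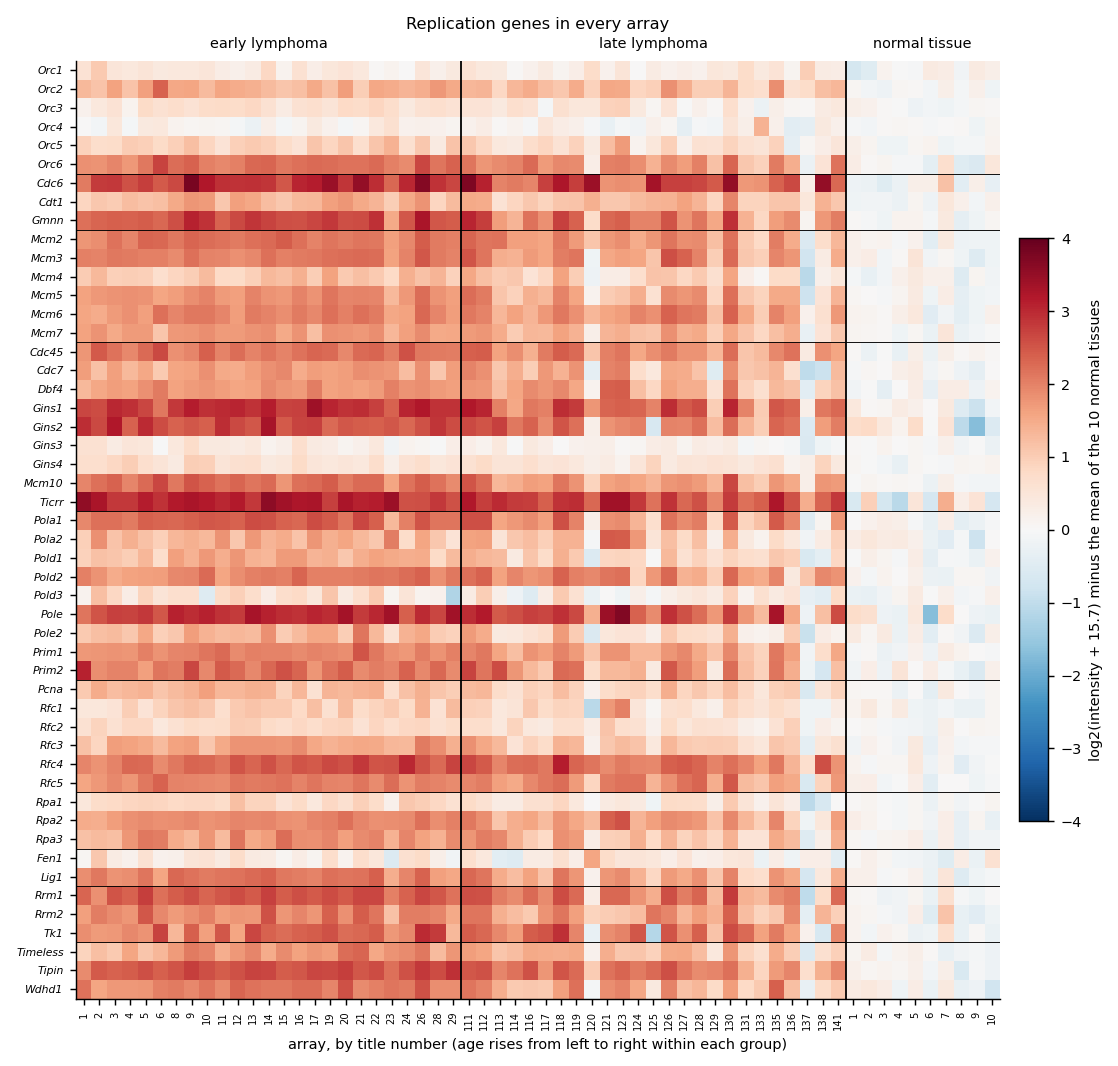
Heat map of the 50 genes (rows, by step) in all 60 arrays (columns, by title number with age rising within a group), coloured by log2(intensity + 15.7) minus the mean of the 10 normal tissues. Early lymphomas are nearly evenly red, while late lymphomas vary, with late lymphoma 137 near or below the normal level for most genes.

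The origin recognition complex, Orc1 to Orc6, was the least changed step and its subunits diverged. Orc6, the smallest subunit, had intensities of 245, 376 and 602 in normal tissue, 1280.3, 1733 and 2510.1 in early lymphoma and 315, 1434 and 1951 in late lymphoma. No early lymphoma overlapped normal tissue, and 22 of 25 late lymphomas lay above it. Its change in early lymphoma was 2.15 ± 0.11 (adjusted p = 8.3e-20), and it fell by 0.54 ± 0.14 from early to late (adjusted p = 0.0045). Orc2, a core subunit, ran 469, 533 and 642 in normal, 1089.7, 1524 and 2797 in early and 827, 1284 and 2003 in late tissue, so both lymphoma groups lay wholly above normal tissue. Its changes against normal tissue were 1.44 ± 0.09 and 1.19 ± 0.12 for early and late lymphoma (adjusted p = 1.4e-16 and 1.6e-10). Orc5 (0.89 ± 0.08), Orc3 (0.61 ± 0.07) and Orc1 (0.40 ± 0.10) rose less in early lymphoma. In late lymphoma they changed by 0.61 ± 0.14, 0.36 ± 0.11 and 0.36 ± 0.11, all past the threshold.

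Orc4, a core ATPase subunit, was the 1 gene of the 50 that was not called in early lymphoma. Its intensities were 739, 856 and 907 in normal tissue, 712, 901 and 1305 in early lymphoma and 615, 925 and 2237 in late lymphoma, and the groups overlapped throughout. Its change of 0.15 ± 0.07 in early lymphoma missed the threshold (adjusted p = 0.080), as did 0.12 ± 0.12 in late lymphoma (adjusted p = 0.43). Its other kept probe sets gave -0.18 and 0.35 in early lymphoma, both past the threshold, so its direction depends on the probe set. Late lymphoma 133 alone held the highest Orc4 value, 2237. Orc1, the subunit whose level varies most through the cell cycle, also depends on the probe set: the brightest gave 0.40 in early lymphoma and the other 1.77.

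Licensing factors rose strongly. Cdc6, the ATPase that helps load the helicase, had intensities of 112, 137 and 389 in normal tissue, 740.5, 1296 and 2443 in early lymphoma and 200.05, 1089 and 2338 in late lymphoma. Its highest normal value came from the spleen, and 24 of 25 late lymphomas lay above it. In 7 of 10 normal tissues Cdc6 lay below the median of its array, as did Gins1 in 6, Ticrr in 9 and Pole in 5, so for these 4 genes the pseudocount shrinks the change against normal tissue. The change of Cdc6 was 2.91 ± 0.16 in early lymphoma (adjusted p = 5.0e-19), and 2.50 ± 0.26 in late lymphoma (adjusted p = 3.2e-10). Geminin (Gmnn), the inhibitor of licensing, ran 509, 664 and 872 in normal, 1892, 3979.99 and 6417 in early and 709, 2668 and 5579.8 in late tissue. It rose by 2.56 ± 0.11 in early lymphoma and fell by 0.64 ± 0.15 from early to late (adjusted p = 0.0026). Cdt1, which geminin binds, changed by 1.34 ± 0.10 and 1.16 ± 0.11 against normal tissue, with every lymphoma of both groups above every normal tissue. From early to late, Cdt1 (-0.18 ± 0.09, adjusted p = 0.13) and Cdc6 (-0.41 ± 0.17, adjusted p = 0.074) missed the threshold.

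All 6 subunits of the MCM helicase, the ring that unwinds DNA, rose in both lymphoma groups. Mcm2 had intensities of 1073, 1489 and 1892 in normal tissue, 4589, 6454 and 7855 in early lymphoma and 968, 4798 and 7346 in late lymphoma. All 25 early lymphomas and 24 of the late ones exceeded the normal range. It rose by 2.11 ± 0.08 in early lymphoma (adjusted p = 8.2e-24) and fell by 0.54 ± 0.13 from early to late (adjusted p = 0.0029). Mcm3 ran 1123, 1564 and 2296 in normal, 4902, 6552 and 9065 in early and 936, 4866 and 9778 in late tissue, the widest late spread relative to early of any of the 50 genes, with an SD of the log2 values 4.64 times as large. Early changes of the others were 1.91 ± 0.09 for Mcm6, 1.81 ± 0.08 for Mcm5, 1.66 ± 0.08 for Mcm7 and 1.08 ± 0.09 for Mcm4. In late lymphoma the 6 changes ran from 0.71 ± 0.19 for Mcm4 to 1.65 ± 0.17 for Mcm6. Of the 6 subunits, 5 fell from early to late, and Mcm6 (-0.26 ± 0.11, adjusted p = 0.084) missed the threshold. A second probe set of Mcm2 gave a smaller early rise of 0.82, and that of Mcm7 a larger one of 2.50.

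Among the factors that fire origins and activate the helicase, all 9 rose in early lymphoma and 8 in late lymphoma. Ticrr (treslin), which brings Cdc45 to origins, had the largest early rise of the 50 genes. Its intensities were 25.7, 65.8 and 223 in normal tissue, 491, 763 and 1031 in early lymphoma and 222, 576 and 881 in late lymphoma, with 1 late lymphoma overlapping normal tissue. The changes were 3.07 ± 0.18 and 2.65 ± 0.21 (adjusted p = 1.5e-17 and 1.9e-12). Its dimmer probe sets gave early rises of 0.40 and 1.05. Gins1 and Gins2, subunits of the GINS complex that binds the ring, rose by 2.87 ± 0.11 and 2.62 ± 0.18 in early lymphoma. Gins4 rose by 0.60 ± 0.07 and Gins3 by 0.32 ± 0.08. Gins3 missed the threshold in late lymphoma (0.12 ± 0.08, adjusted p = 0.22), while its second probe set passed it (0.40 ± 0.12, adjusted p = 0.0054) and gave 0.66 in early lymphoma.

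By the brightest probe sets, Gins2 had the largest fall from early to late of the 50 genes. It ran 53.3, 256 and 371 in normal tissue, 1059, 1303 and 2195 in early lymphoma and 128, 892 and 1478 in late lymphoma, and 19 of 25 late lymphomas lay below every early lymphoma. The fall was 0.87 ± 0.18 (adjusted p = 0.0011), while the second probe set of Gins2 changed by -0.66 ± 0.13 (adjusted p = 6.4e-04). Cdc45, the partner of GINS and the ring, rose by 2.15 ± 0.08 and 1.78 ± 0.16 against normal tissue, although its second probe set gave 0.16 in early lymphoma. Gins1 ran 87.5, 178 and 232 in normal, 785, 1371 and 1917 in early and 204, 909 and 1674 in late tissue and fell by 0.67 ± 0.15 from early to late (adjusted p = 0.0014). The kinase Cdc7 (1.57 ± 0.09) and its activator Dbf4 (1.72 ± 0.08) both rose in early lymphoma, and Mcm10, which helps open the ring, rose by 2.19 ± 0.08. Of these 9 factors only Gins4 (-0.11 ± 0.06, adjusted p = 0.18) did not fall past the threshold from early to late.

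Primase and the replicative polymerases rose in early lymphoma for 9 of 9 subunits. Pole, the catalytic subunit of the leading strand polymerase epsilon, had intensities of 53.7, 199 and 364 in normal tissue, 973, 1718 and 2315 in early lymphoma and 179, 1348 and 2937 in late lymphoma. It rose by 2.89 ± 0.17 in early lymphoma (adjusted p = 4.1e-18) and by 2.35 ± 0.30 in late lymphoma (adjusted p = 2.6e-08), and 24 of 25 late lymphomas lay above normal tissue. Its partner Pole2 rose by 1.29 ± 0.12 and 0.60 ± 0.20. Pola1, the catalytic subunit of polymerase alpha, ran 305, 401 and 495 in normal, 1021, 2139.5 and 2661 in early and 275, 1486 and 2479 in late tissue, with 22 of 25 late lymphomas above normal tissue. It rose by 2.30 ± 0.10 in early lymphoma and fell by 0.71 ± 0.17 from early to late (adjusted p = 0.0029). Prim1, the catalytic primase subunit, rose by 1.95 ± 0.07 and Prim2, the large subunit, by 2.15 ± 0.12 in early lymphoma. From early to late Prim2 fell by 0.71 ± 0.18, Pole2 by 0.69 ± 0.14, Pold1 by 0.62 ± 0.13 and Prim1 by 0.45 ± 0.11.

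Polymerase delta, the main lagging strand enzyme, differed by subunit. Pold2 ran 823, 1027 and 1155 in normal, 2789, 4042 and 5201 in early and 1301, 3633 and 5151 in late tissue, and every lymphoma lay above every normal tissue. Its rises were 1.97 ± 0.08 and 1.75 ± 0.16, and its change from early to late missed the threshold (-0.22 ± 0.11, adjusted p = 0.14). The accessory subunit Pold3 changed by 0.49 ± 0.16 in early lymphoma (adjusted p = 0.0086) and by 0.26 ± 0.15 in late lymphoma (adjusted p = 0.13), with 17 early and 10 late lymphomas above normal tissue. Both other probe sets of Pold3 passed in late lymphoma, at 0.52 ± 0.17 (adjusted p = 0.011) and 0.54 ± 0.13 (adjusted p = 8.3e-04), and gave 0.94 and 0.73 in early lymphoma. The catalytic subunit Pold1 rose by 1.35 ± 0.10 and Pola2 by 1.33 ± 0.13 in early lymphoma. Pold4, the small subunit and not among the 50, was lower in early lymphoma at -0.61 ± 0.10 (adjusted p = 1.3e-06) and in late lymphoma at -0.69 ± 0.17 (adjusted p = 8.5e-04).

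**Figure D3:**
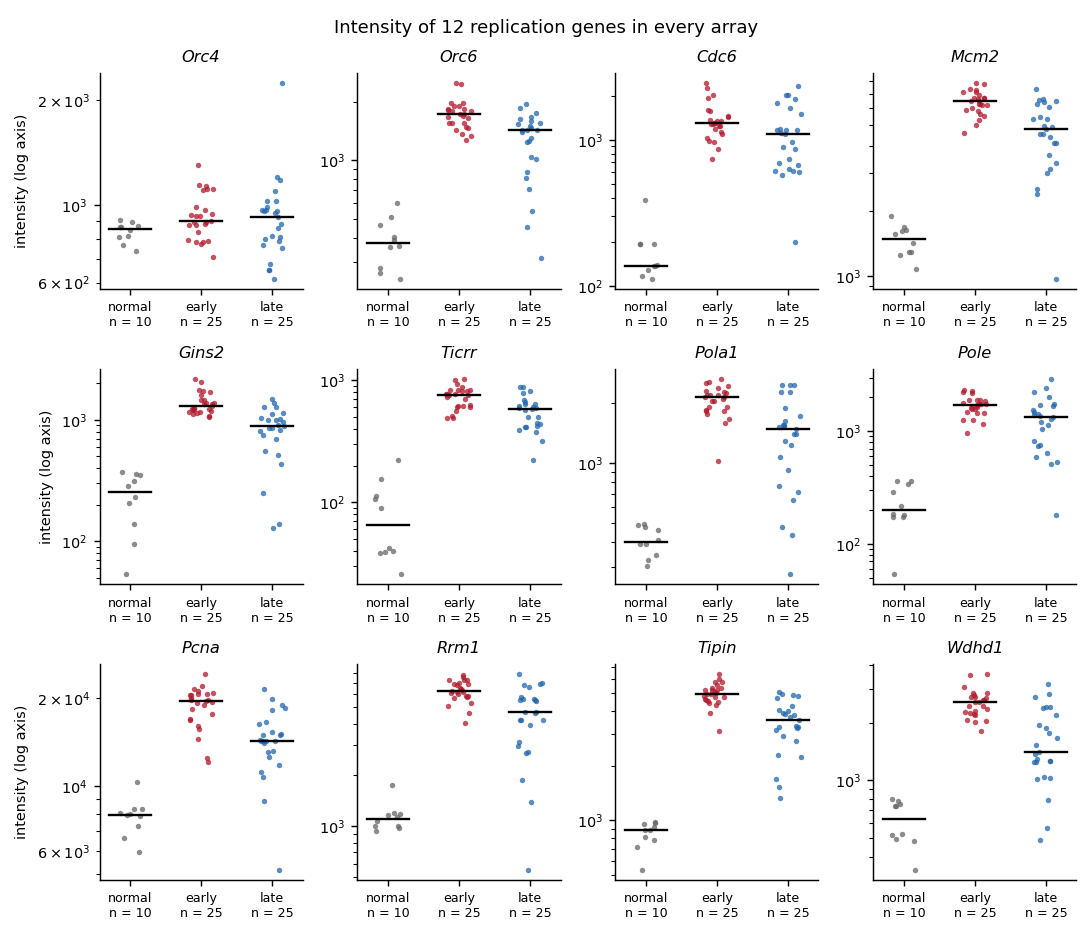
Intensity (log axis) of 12 replication genes in every normal tissue (grey, n = 10), early lymphoma (red, n = 25) and late lymphoma (blue, n = 25), with black bars at the medians. Orc4 overlaps in all groups, the other 11 genes show no overlap between early lymphoma and normal tissue, and late lymphoma reaches down into the normal range for most of them.

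The sliding clamp Pcna, which tethers polymerases to DNA, was bright in all tissues, at 5958, 7982 and 10316 in normal tissue, 12019, 19512 and 24098 in early lymphoma and 5162, 14266 and 21394 in late lymphoma. Early lymphomas lay wholly above normal tissue, and 23 of 25 late lymphomas did. The change was 1.24 ± 0.09 in early lymphoma (adjusted p = 1.2e-15) and the fall from early to late was 0.40 ± 0.09 (adjusted p = 0.0025). All 5 subunits of the clamp loader RFC rose in both lymphoma groups, from 0.76 ± 0.06 for Rfc2 to 2.38 ± 0.10 for Rfc4 in early lymphoma. Rfc4, at 249, 354 and 475 in normal, 1258, 1813 and 2907 in early and 569, 1555 and 3199 in late tissue, was separated from normal tissue in every lymphoma. Between them lay Rfc1 (0.91 ± 0.10), Rfc3 (1.54 ± 0.10) and Rfc5 (1.99 ± 0.07), and of the 5, Rfc3 (-0.62 ± 0.11) and Rfc2 (-0.24 ± 0.07) fell from early to late.

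RPA, which coats single-stranded DNA, is a complex of Rpa1, Rpa2 and Rpa3, and all 3 rose in both groups and fell from early to late. Rpa2 had intensities of 436, 563 and 654 in normal, 1534, 2046 and 2570.4 in early and 485, 1658 and 3279 in late tissue and an early rise of 1.87 ± 0.07 (adjusted p = 1.6e-23). Rpa3 rose by 1.69 ± 0.11 and Rpa1, the largest subunit, by 0.77 ± 0.07. In Okazaki fragment joining, DNA ligase Lig1 ran 654, 932 and 1306 in normal, 2552, 4113 and 4921 in early and 575, 2677 and 4623 in late tissue. It rose by 2.03 ± 0.10 in early lymphoma and fell by 0.67 ± 0.14 from early to late (adjusted p = 0.0013). For the flap nuclease Fen1 the brightest probe set, of the kind that can hybridise with other transcripts, gave 0.36 ± 0.12 in early lymphoma with 7 of 25 arrays above normal tissue, and a second one gave 2.04. In late lymphoma the first missed the threshold (0.31 ± 0.15, adjusted p = 0.080) and the second gave 1.77 ± 0.18 (adjusted p = 1.9e-10).

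Nucleotide supply and fork protection were among the steps with the larger medians. Rrm1, the large subunit of ribonucleotide reductase, had intensities of 929, 1099 and 1750.2 in normal, 4039.9, 6234 and 7734 in early and 552, 4663 and 7846 in late tissue, and 23 of 25 late lymphomas lay above normal tissue. It rose by 2.45 ± 0.09 in early lymphoma, a 5.45-fold higher level (adjusted p = 2.2e-24), and fell by 0.61 ± 0.17 from early to late. The small subunit Rrm2 rose by 1.92 ± 0.13 and 1.43 ± 0.20 in early and late lymphoma, and thymidine kinase Tk1 by 2.14 ± 0.15 and 1.70 ± 0.33. Tipin, which with Timeless stabilises the fork, had the smallest adjusted p of the 50 in early lymphoma. It ran 535, 888 and 984 in normal, 3109.8, 4945 and 6373 in early and 1321, 3561 and 5066 in late tissue, with every lymphoma above every normal tissue, and its early rise was 2.54 ± 0.08 (adjusted p = 6.0e-25).

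Wdhd1 (And-1), which links polymerase alpha to the helicase, was at 342, 632 and 804 in normal, 1809.6, 2553 and 3582 in early and 488, 1408 and 3177 in late tissue. It rose by 2.04 ± 0.11 in early lymphoma. From early to late it fell by 0.75 ± 0.14 (adjusted p = 4.7e-04), by the brightest probe sets the largest fall after Gins2. For Wdhd1, 16 of 25 late lymphomas lay below every early lymphoma. Timeless rose by 1.65 ± 0.12 and fell by 0.54 ± 0.13, and Tipin fell by 0.59 ± 0.11. The 14 genes whose change from early to late missed the threshold were Orc1, Orc4, Cdc6, Cdt1, Mcm6, Gins4, Pola2, Pold2, Pold3, Rfc1, Rfc4, Rfc5, Fen1 and Tk1. For 4 of them another kept probe set was called lower: Orc1 (-0.41 ± 0.12), Orc4 (-0.28 ± 0.09), Pold3 (-0.42 ± 0.13) and Rfc4 (-0.38 ± 0.13).

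The lower level in late lymphoma came with a wider spread between arrays. The SD of the log2 values was higher in late than in early lymphoma for 46 of 50 genes, as for 79.9% of all genes, and the median ratio of the SDs was 2.17 for the 50 against 1.35 for all genes. For 42 genes at least 5 late lymphomas lay below every early lymphoma, as for 19.4% of all genes. Seen by array, 3 late lymphomas (111, 112 and 118) had no gene below the early range, while 7 had at least 25 genes below it. Late lymphoma 137 had the lowest value of all 50 lymphomas for 37 genes, 46 genes below the early range and 41 not above the highest normal tissue. Its mean log2 level over the 50 genes was 9.42, within the 9.37 to 9.83 of normal tissue, while its Myc intensity was 10221. Late lymphoma 120 had 39 genes below the early range, 133 had 38, 138 had 35, 129 had 32, 131 had 31 and 125 had 28. The share of all genes outside the early range was not counted for single arrays. The counts by array, here and in the next paragraph, are therefore not read as particular to the replication genes.

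Late lymphomas 121 and 123 went the other way for some genes, each with 8 above the early range. Orc3, Cdc7, Dbf4, Pola2, Pole, Rfc1 and Rpa2 were above the early range in both of them, while 10 genes in 121 and 9 in 123 were below it. These arrays were also close in summed B lineage markers (37115 and 36627), plasma cell markers (9868 and 10032) and Myc (16822 and 17514). Whether they are independent samples is not given in the labels, so the shared genes are not read as recurrence. Late lymphoma 130, the library with T cell markers, had 5 genes above the early range (Cdt1, Mcm6, Dbf4, Rfc5 and Rrm1) and 1 gene, Gins2, below it.

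**Figure D4:**
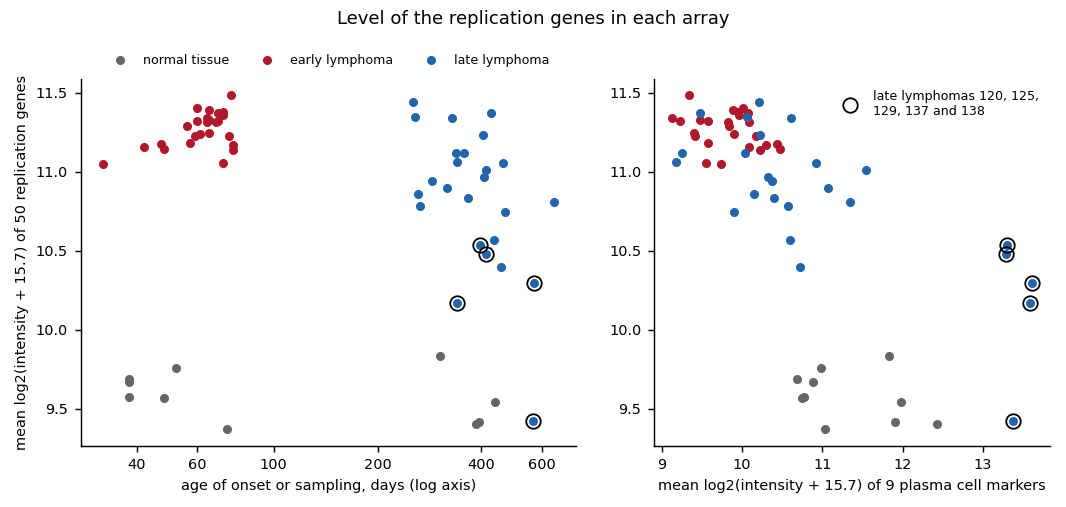
Mean log2(intensity + 15.7) of the 50 replication genes in each array against age (left, log axis) and against the mean of 9 plasma cell markers (right), for normal tissue (grey), early lymphoma (red) and late lymphoma (blue). Late lymphomas 120, 125, 129, 137 and 138 (black rings) lie between 9.42 and 10.5, below nearly all other lymphomas.

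The 5 late lymphomas highest in plasma cell markers held lower levels of the replication genes, with mean log2 levels of 9.42 to 10.5 against 10.4 to 11.4 in the other 20. Plasma cells are antibody-secreting cells that have left the cell cycle. The same 5 had Gapdh 3-prime to 5-prime log2 ratios, a measure of RNA quality, of -0.61 to -0.48, against -0.49 to -0.30 in the others. These lower ratios mean relatively less 3-prime signal, and they are not read here as poorer RNA. The beta-actin ratios of the 5, 0.16 to 0.42, overlapped those of the others, 0.13 to 0.33. Without these 5, 22 genes were lower in late than in early lymphoma, all of them among the 36, with a median change of -0.26, and the change was below 0 for 49 of 50. With the Gapdh and beta-actin ratios as covariates, 13 genes were lower, all among the 36, with a median of -0.30. Over all kept probe sets the share called lower went from 12.4% to 5.06% without the 5 and to 3.61% with the ratios. The 13 genes called with the ratios were Gins1, Gins2, Gmnn, Lig1, Mcm10, Mcm7, Pold1, Pole2, Rfc3, Rpa3, Rrm2, Tipin and Wdhd1. With both changes together 14 genes were called, when 3.81% of all kept probe sets were called lower. Without late lymphomas 117, 130, 131 and 133, 35 genes were lower (10.5% of all kept probe sets). Leaving out each late lymphoma in turn gave 33 to 39 (10.6% to 14% of all kept probe sets). The part that plasma cell content or RNA quality had in the change was not tested.

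**Figure D5:**
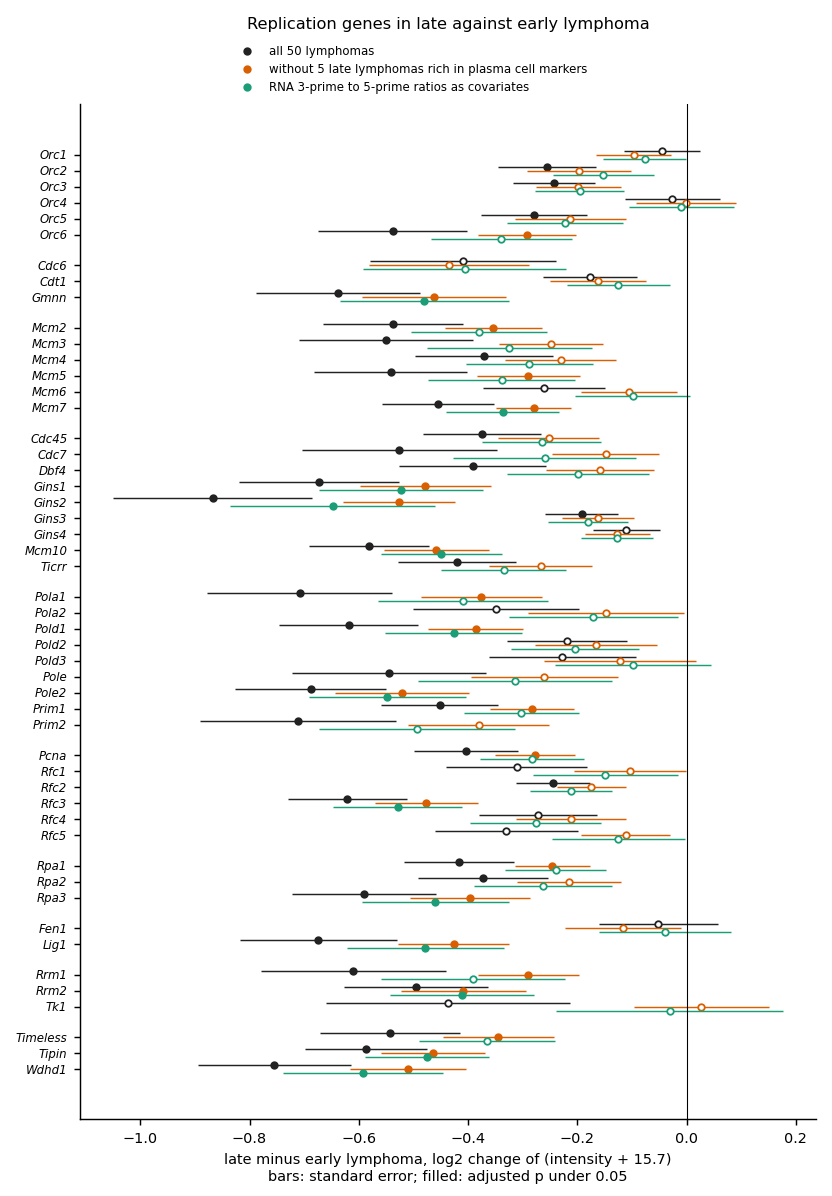
Log2 change from early to late lymphoma of each of the 50 genes, with all 50 lymphomas (black), without the 5 late lymphomas highest in plasma cell markers (orange) and with the RNA 3-prime to 5-prime ratios as covariates (green), with standard errors as bars and filled points where the adjusted p is under 0.05. Filled points number 36, 22 and 13, and for most genes the orange and green values lie closer to 0 than the black ones.

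The wider replication pathway was read from a list of 51 other measured genes, among them licensing controllers, E2F factors and nucleotide enzymes. In early lymphoma 45 rose and 4 fell (median 1.49), in late lymphoma 39 rose and 3 fell (median 1.01), and from early to late 26 fell and 0 rose (median -0.28). Of all genes, 30.1% rose and 39% fell in early lymphoma, and 24.7% and 30.1% in late lymphoma. From early to late 12.6% of all genes fell and 11.2% rose. The largest early rises were those of Dut, the dUTPase (2.86 ± 0.08), Ccna2, cyclin A (2.64 ± 0.10), the repressor E2f8 (2.63 ± 0.15) and Dtl, the ligase adaptor that marks Cdt1 for degradation (2.61 ± 0.10). In late lymphoma Ccna2 (2.23 ± 0.24), Dtl (2.19 ± 0.20), cyclin E2 (Ccne2, 2.13 ± 0.28) and topoisomerase Top2a (2.02 ± 0.20) led. The genes that fell in early lymphoma were Rbl2, a pocket protein of resting cells (-1.10 ± 0.07), Samhd1, which breaks down dNTPs (-1.02 ± 0.16), Pold4 and Rb1 (-0.33 ± 0.14, adjusted p = 0.037). Rb1 was at 0.01 with no call when arrays were centred on their median, whereas Rbl2, Samhd1 and Pold4 stayed below 0 past the threshold in both lymphoma groups under both other scalings. The largest falls from early to late were those of Dut (-0.87 ± 0.17), Chaf1b (-0.82 ± 0.18), Dna2 (-0.68 ± 0.17) and Dck (-0.67 ± 0.17).

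Mitotic genes moved in the same directions. All 17 measured rose in both lymphoma groups (medians 2.42 and 2.01) and all 17 fell from early to late (median -0.48). The shares of all genes are those given for the other replication genes. In early lymphoma Ube2c (3.09 ± 0.15), Cdk1 (3.01 ± 0.11), Bub1 (2.93 ± 0.11) and Bub1b (2.76 ± 0.09) rose most. The proliferation marker Mki67 changed by 2.23 ± 0.13 in early and 1.93 ± 0.18 in late lymphoma and by -0.30 ± 0.11 from early to late (adjusted p = 0.040). From early to late, 5 of the 17 mitotic genes were lower with the RNA ratios as covariates, 9 without the 5 late lymphomas highest in plasma cell markers (median -0.31) and 14 without the 4 highest in Cd8b1. Of the 51 other replication genes 7, 14 and 22 were lower under the same changes. Over all kept probe sets 3.61%, 5.06% and 10.5% were then called lower. Against normal tissue, 42 of the 51 rose in late lymphoma without the 5 and 39 without the 4, and all 17 mitotic genes rose without either. Of all kept probe sets, 24.3% rose without the 5 and 22.2% without the 4.

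Markers of other cell types moved with the same comparisons. In early lymphoma 7 of 8 T cell markers, 8 of 10 macrophage and monocyte markers, 9 of 10 stroma and vessel markers and 7 of 9 plasma cell markers were lower than in normal tissue, and 0 of each list were higher. Of all genes, 39% were lower and 30.1% higher. The summed T cell marker intensity was 811 to 4332 in early lymphoma, 873 to 30321 in late lymphoma and 13623 to 28182 in normal tissue. That of macrophage and monocyte markers was 14646 to 53796, 13495 to 58288 and 47361 to 67848, and that of stroma and vessel markers 8936 to 30626, 6110 to 46095 and 12701 to 73693. From early to late, 7 of 9 plasma cell markers, 3 of 8 T cell markers and 3 of 10 macrophage markers were higher, and 6 of 8 B lineage markers were lower. Of all genes, 11.2% were higher and 12.6% lower. No marker of any list was at 0 in any array, and the part of tissue makeup in the changes of the replication genes was not tested.

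Age without a tumour was read in normal tissue. Between 4 old and 6 young normal tissues 0 of 50 genes passed the threshold with limma, against 1.7% of all genes, and 5 had an unadjusted p under 0.05 (17.9% of all genes), of which 4 were lower (8.76% of all genes). The others were Pola2 (-0.57 ± 0.18), Mcm3 (-0.32 ± 0.14), Timeless (-0.31 ± 0.10) and, higher, Cdt1 (0.32 ± 0.10), besides Gins2 at -1.14 ± 0.35 (adjusted p = 0.14), and the median over the 50 was -0.06. Without the spleen Gins2 passed the threshold, at -1.55 ± 0.26 (adjusted p = 0.018 with limma). The difference between the onset contrast and this age contrast was tested over all 60 arrays. It passed for 0 of 50 genes with limma (0.0159% of all genes), with 9 lower at an unadjusted p under 0.05 (3.34% of all genes) and a median of -0.40, which became 0.02 with the RNA ratios as covariates. The fall of the replication genes from early to late lymphoma was therefore not shown to differ from the age contrast in normal tissue.

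Within early lymphoma, 5 genes had a higher level at later onset, against 2.07% of all genes, and 0 a lower one (7.14% of all genes). Per unit of log2 onset age the slopes were 0.82 ± 0.19 for Timeless, 0.74 ± 0.14 for Rfc4, 0.63 ± 0.17 for Pole, 0.49 ± 0.12 for Tipin and 0.45 ± 0.09 for Rpa2 (adjusted p = 0.011, 0.0035, 0.021, 0.011 and 0.0053). Without the early lymphoma of 32 days 3 genes were called (Rfc4, Rpa2 and Pold2), when 0.509% of all kept probe sets were called higher. With arrays centred on their median 35 were, but 27% of all kept probe sets were then called higher, against 2% before, and their median slope was 0.34 against -0.09. The youngest early lymphomas, of 32 and 42 days, had array medians of 205.67 and 204.69, against 124.21 to 159.47 in the other early lymphomas. Only that of 32 days was left out, and the part of this shift in the slopes was not tested. Within late lymphoma 0 genes were called with limma (0 of all genes higher and 0.0159% lower), while 30 had an unadjusted p under 0.05 and a slope below 0, as 11.4% of all genes did. The median slope was -0.65, and -0.28 without the 5 lymphomas highest in plasma cell markers, 2 of which have onset at 567 and 569 days.

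Several values depend on which probe set stands for a gene or on the scale. Over all 99 kept probe sets of the 50 genes, 95 rose and 1 fell in early lymphoma, 88 rose and 0 fell in late lymphoma, and 63 fell and 0 rose from early to late. Of all kept probe sets, 28.4% rose and 39.8% fell in early lymphoma, and 22.4% and 32.4% in late lymphoma. From early to late 12.4% of them fell and 9.58% rose. When arrays were quantile normalized or centred on their median, the share of calls that were higher, over all probe sets, moved from 41.6% to 55.1% and 65.1% in early lymphoma, from 40.9% to 56.4% and 65.8% in late lymphoma, and from 43.6% to 40.9% and 31.5% from early to late. The median change over all kept probe sets in early lymphoma was -0.12 as deposited and 0.09 and 0.22 on those scales. No gene of the 50 changed direction on either scale in these 3 comparisons, with 49 and 50 higher in early lymphoma (39.4% and 45.6% of all kept probe sets), 47 and 50 in late lymphoma (33.8% and 38.4%) and 36 lower from early to late on both scales (13.7% and 14.7%).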

How the data were processed

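RNA of snap-frozen tissue was measured on Affymetrix mouse arrays (biotin-labelled cRNA from 6 µg of total RNA, per the labels' protocols). The deposited values are linear MAS5 intensities, named as MAS5 per the submitters' processing notes, with a 2% trimmed mean of 500 on every array. From them log2(intensity + 15.7) was computed, where 15.7 is the table's median divided by 10. A probe set was kept where it exceeded the array median on 10 or more of the 60 arrays, which left 27094 of 45101, with 64 controls left out. A gene was its brightest probe set naming it alone (34958 probe sets name 1 gene, 932 several and 9211 none, and 34754 matched RefSeq GRCm38.p6). Groups were compared with limma 3.58.1 in R 4.3.3 (empirical Bayes with a mean-variance trend, two-sided, Benjamini-Hochberg over all kept probe sets, threshold 0.05). The limma fit was tested on simulated data, and the other steps ran in Python 3.11.15. The 10 normal tissues serve both lymphoma groups. The number of arrays limits the precision.

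All 50 genes are accounted for. Of the other replication and mitotic genes, up to 4 with the largest called change each way are named per comparison, with Mki67. The 50 genes and the other lists were chosen with earlier results of these data known. Alternatives were the pseudocount, the filter, quantile normalization, centring, RNA 3-prime to 5-prime ratios as covariates, array weights, other probe sets, young or old normal tissue alone, a replicate block and left-out arrays. Those that leave out the 5 late lymphomas high in plasma cell markers, the 4 high in Cd8b1, late lymphoma 137, each late lymphoma in turn or the youngest early lymphoma, the probe set not ending in _s_at or _x_at, and the combined covariates were chosen after seeing the data.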

Additional observations from a re-analysis of the deposited data

Results flagged for a closer look

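For 7 of the 50 replication genes, 1 of the 10 normal tissues lay far from the other 9, with a gap to its neighbour that is a large share of the group's range in log2 values. Chance alone gives such a gap in about 1 in 20 groups. The genes share the same 10 arrays and are not independent, so the count of 7 is not set against that rate. The share of all genes with such a gap was not counted. Normal tissue 7, the spleen, was the highest for 5 of them: Cdc6 (gap over range 0.567, intensity 389), Mcm7 (0.475, intensity 6974), Rrm1 (0.6, intensity 1750.2), Rrm2 (0.548, intensity 5060.2) and Tk1 (0.515, intensity 818). Normal tissue 6 was the lowest for Pole (0.589, intensity 53.7) and normal tissue 8 for Tipin (0.476, intensity 535). Without the spleen 49 genes were higher in early and 46 in late lymphoma, the same counts as with it. Of all kept probe sets, 28% and 21.7% were higher.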

How the results depend on the processing

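With the second brightest probe set, kept for 33 genes, 32 were called in early lymphoma against normal tissue, of which Orc4 was lower and the rest higher. In late lymphoma 30 were called, all higher, and from early to late 18, all lower. On onset age in early lymphoma 1 was called. Of all kept probe sets, 28.4% were higher and 39.8% lower in early lymphoma. In late lymphoma 22.4% were higher, and from early to late 12.4% were lower. On onset age 2% were called higher and 6.98% lower. From early to late 13 genes were called with the RNA ratios, 22 without the 5 late lymphomas high in plasma cell markers and 14 with both, and 33 to 39 when each late lymphoma was left out in turn. The shares of all kept probe sets called lower were 3.61%, 5.06%, 3.81% and 10.6% to 14%. Leaving out normal arrays in turn gave 0 to 1 genes for old against young normal tissue (1 without the spleen) and 0 to 0 for the difference of contrasts. The onset slope in early lymphoma was called for 35 genes after centring, when 27% of all kept probe sets were called higher against 2% before, and for 3 without early lymphoma 1, when 0.509% were. Against old normal tissue alone 42 genes rose in late lymphoma. Orc4 reversed to -0.18 and -0.23 against normal tissue with the second probe set, and from early to late to 0.011 with the ratios and without the 5, and 0.0045 with array weights. Tk1 became 0.027 without the 5 and 0.069 with the ratios as well. Where no value above shows it, the cause was not tested. Early and normal arrays share 9 title numbers, with correlations of -0.109 to 0.084 between their deviations and 0 best with its own number. These values give no sign that the numbers pair the arrays. They cannot settle it, as a lymphoma and a normal tissue that are paired need not vary together. With the title numbers as a replicate block 49 genes were called, as without the block on the same 18 arrays. Of all kept probe sets, 26.2% and 26.8% were then called higher.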
